A study of Mus musculus with 6 samples.

Results

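The 46 genes described here mark cells that are dividing. They were chosen by symbol from a list of replication genes (S phase, 20 genes) and mitotic genes (G2/M, 26 genes), and all 46 were among the 26100 rows of the gene table. All 46 also passed the filter on low counts, which left 16633 rows for testing. RNA was sequenced from lung tissue of 6 mice, 3 wild type (WT) and 3 with a knockout of *Clec7a* (KO), and every mouse in both groups had received bleomycin into the airway 14 days before. *Clec7a* encodes dectin-1, a lectin receptor of myeloid cells, and bleomycin is a DNA-damaging drug used to produce lung fibrosis. The sources used here do not give the strain, age or sex of the mice, nor how the knockout was made. Lungs without bleomycin were not analysed here.

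A cell that leaves rest first copies its DNA and then divides, and each step has its own set of transcripts. Before S phase, origin licensing factors load the MCM helicase onto DNA, and E2F transcription factors switch on these genes together with the enzymes that make deoxynucleotides. Later, B-MYB and FOXM1 with the MuvB complex switch on the G2/M genes, which encode the mitotic cyclins, the Aurora and Polo kinases, the centromere proteins and the machinery of the spindle and of cytokinesis. In resting cells a repressor form of MuvB holds both sets off. In injured lung, macrophages, lymphocytes, fibroblasts, endothelial cells and alveolar epithelial cells can all enter the cycle. Whole-lung RNA does not say which of them carried a transcript, and fewer dividing cells cannot be told apart from less of the transcript per cell.

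Short motifs around the start sites of these genes differed in frequency between the phases, and not every member carried them. The sequences shown here are the examples that a fixed rule picked, the members of smallest p in each phase whose window held the motifs. They come from RefSeq on GRCm38.p6 and run 5′ to 3′ on the gene's own strand. Positions are counted from the start site, where -1 is the last base before it and the first transcribed base is 1. Capitals mark matches on either strand: the E2F motifs TTCCCGC, TTCCCGCC, TTTCGCGC and TTTGGCGC in S phase genes, the cell cycle homology region (CHR) TTTGAA in G2/M genes, and the NF-Y box CCAAT in both. TTCCCGCC contains TTCCCGC, so those 2 overlap. *Rrm1* (chr7:102441598-102441694, plus strand, positions -97 to -1) holds 1 E2F match between 2 NF-Y boxes, and the 30-base site of *Cdt1* (chr8:122568028-122568057, plus strand, positions 14 to 43) holds 2 E2F matches.
Rrm1: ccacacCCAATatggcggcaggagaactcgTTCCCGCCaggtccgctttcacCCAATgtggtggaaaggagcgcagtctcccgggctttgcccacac
Cdt1: aatccGCGGGAActaccttTTTGGCGCcat
*Ccnb2* (chr9:70421543-70421647, minus strand, positions -93 to 12) and *Cenpa* (chr5:30666771-30666909, plus strand, positions -115 to 24) show the G2/M arrangement, NF-Y boxes followed downstream by a CHR near the start site.
Ccnb2: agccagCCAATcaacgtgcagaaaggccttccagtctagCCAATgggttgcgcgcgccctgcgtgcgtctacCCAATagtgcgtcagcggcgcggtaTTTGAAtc
Cenpa: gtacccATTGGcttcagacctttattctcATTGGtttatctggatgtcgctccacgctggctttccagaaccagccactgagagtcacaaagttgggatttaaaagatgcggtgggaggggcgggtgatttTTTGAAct

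RefSeq promoter windows, which reach from 250 bases before the start site to 50 after it, were matched for 17 S phase and 22 G2/M members. Of the 23 G2/M windows, 18 held the CHR (78.3%), against 2 of 19 S phase windows (10.5%) and 17.9% of all 32851 windows. The CHR and an NF-Y box occurred together in 17 G2/M windows (73.9%), in 2 S phase windows (10.5%) and in 6.95% of all windows. An E2F motif was found in 11 S phase windows (57.9%), in 1 G2/M window (4.35%), that of *Cdk1*, and in 5.33% of all windows. The NF-Y box alone was common in both phases, at 63.2% of S phase and 87.0% of G2/M windows beside 37.4% of all. The second CHR form searched, TTTAAA, was in 21.1% of S phase, 30.4% of G2/M and 13.2% of all windows, and it was the form in *Ccnb1*, whose window held no TTTGAA. Replication and mitotic genes outside the 46 showed the same order, with an E2F motif in 47.2% and 16.7% of windows and the CHR in 15.1% and 58.3%. A match describes the letters in a window and is not evidence of binding.

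**Figure D1:**
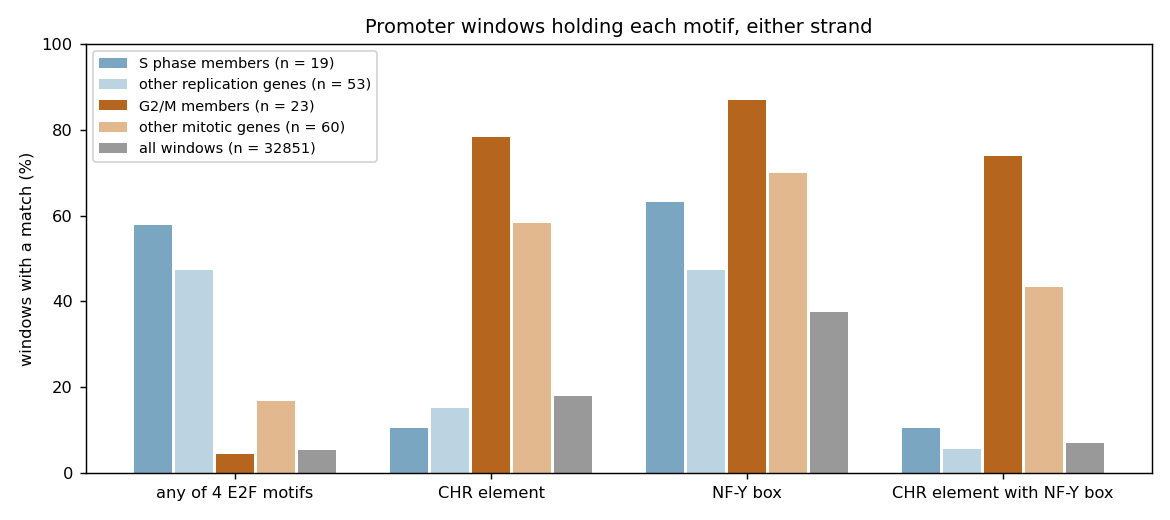
Share of RefSeq promoter windows (y axis, percent) that hold an E2F motif, the CHR element, the NF-Y box, or the CHR element with an NF-Y box, for 5 sets of windows (colours, with the number of windows in each). The CHR element bar stands at 78.3% for the G2/M members and 10.5% for the S phase members, and the E2F bar at 4.35% and 57.9%.

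The libraries held 31052936 to 34451956 counts. *Clec7a* was at 60.6, 84.0 and 196.5 CPM (counts scaled to a common library size) in WT replicates 1 to 3 and at 3.60, 6.85 and 2.84 CPM in KO, so the groups did not overlap. Its log2 fold change (KO minus WT, as in every estimate here) was -4.68 ± 0.61 (SE), with an adjusted p of 0.203 in edgeR's quasi-likelihood test. The libraries numbered 1 stood apart in both genotypes: Spearman correlations across the tested genes were 0.924 to 0.947 for pairs that included one and 0.959 to 0.992 for the others. Lung markers were read in every library, among them the surfactant genes of type 2 alveolar cells. Over all 16633 genes edgeR called 0 at an adjusted p under 0.05 and had 1968 (11.8%) at an unadjusted p under 0.05, and limma-voom called 0. DESeq2 called 678, which is 3.63% of the 18663 genes to which it gave an adjusted p.

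No cell cycle gene differed between the genotypes beyond edgeR's threshold, while nearly all G2/M genes had lower estimates in KO. Of the 26 G2/M members 25 had an estimate below 0 (51.0% of all genes did), with a median log2 fold change of -0.54 beside -0.01 over all genes tested. In edgeR 0 passed the adjusted threshold (smallest adjusted p 0.321), and 6 were lower at an unadjusted p under 0.05, which is 23.1% beside 5.89% of all genes. DESeq2 also called 0 (smallest adjusted p 0.165), with 8 lower at an unadjusted p under 0.05 (5.57% of all genes). limma-voom called 0, with 6 lower at an unadjusted p under 0.05 (6.32%). The 6 in edgeR were *Ccnb1*, *Ccnb2*, *Plk1*, *Anln*, *Cenpa* and *Aurka*. That count rested on single libraries. It was 17 without WT replicate 1 (6.71% of all genes), 5 without KO replicate 1 (6.33%) and 6 without KO replicate 2 (4.7%). It was 0 when the library left out was WT replicate 2 (3.21%), WT replicate 3 (4.24%) or KO replicate 3 (3.65%). On the FPKM values it was 1, with limma on log2(FPKM + 1) (4.95% of all genes, or 4.5% with no filter) and on log2(FPKM + 0.1) (4.85%).

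The mitotic cyclins and their kinase had the lowest median of the G2/M roles, -0.75 over 4 genes. *Ccnb1*, cyclin B1, which activates CDK1 for entry into mitosis, was at 21.8, 43.6 and 36.5 CPM in WT and at 19.99, 20.96 and 14.3 CPM in KO. All 3 KO libraries lay below all WT libraries, with WT replicate 1 only just above KO replicate 2. Its estimate was -0.88 ± 0.30, or 1.85-fold lower, with an unadjusted p of 0.024 and an adjusted p of 0.348 in edgeR. *Ccnb2*, cyclin B2, was at 22.1, 38.1 and 32.3 CPM in WT and 19.2, 19.1 and 12.9 CPM in KO. The groups again did not overlap, and the estimate was -0.85 ± 0.27 (edgeR adjusted p 0.321). *Ccna2*, cyclin A2, which acts in both S phase and G2, was at 39.7, 87.3 and 71.9 CPM in WT and 42.3, 52.9 and 32.1 CPM in KO. WT replicate 1 lay among the KO libraries, and the estimate was -0.64 ± 0.34. *Cdk1*, the mitotic kinase itself, had -0.65 ± 0.30 with overlapping groups.

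Among the mitotic kinases, *Plk1*, the Polo-like kinase of spindle assembly and cytokinesis, was at 14.5, 28.7 and 24.9 CPM in WT and 12.9, 14.2 and 9.31 CPM in KO. The groups did not overlap, with WT replicate 1 only just above KO replicate 2, and the estimate of -0.90 ± 0.31 was the lowest of all 46 genes (edgeR adjusted p 0.355). *Aurka*, the centrosome kinase, also had no overlap (-0.62 ± 0.24). *Aurkb* (-0.66 ± 0.32), the kinase of the chromosomal passenger complex, its partner *Birc5* (-0.50 ± 0.28), which encodes survivin, and the AURKA activator *Tpx2* (-0.61 ± 0.32) overlapped between the genotypes. The median over these 5 genes was -0.62. The partners of the anaphase-promoting complex, a ubiquitin ligase that ends mitosis, were its activator *Cdc20* (-0.59 ± 0.27) and its ubiquitin-conjugating enzyme *Ube2c* (-0.27 ± 0.22).

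Of the centromere genes, *Cenpa*, the histone H3 variant that defines the centromere, had the highest mean level per gene length in the G2/M set, 22.7 ± 3.3 FPKM in WT and 16.1 ± 3.5 FPKM in KO (SD, n = 3 each; FPKM scales fragments to gene length and library size). In CPM it was at 26.5, 32.1 and 30.03 in WT and 21.3, 22.2 and 16 in KO, with no overlap. Its estimate was -0.57 ± 0.20 (edgeR adjusted p 0.345). *Ttk*, the kinase that starts the spindle checkpoint, had -0.83 ± 0.35 and no overlap. The checkpoint kinase genes *Bub1* (-0.28 ± 0.34) and *Bub1b* (-0.28 ± 0.35) and the kinetochore genes *Cenpe* (-0.51 ± 0.45) and *Cenpf* (-0.21 ± 0.43) overlapped, and of these 4 only *Cenpe* was more than 1 SE from 0.

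The spindle and cytokinesis genes had a median of -0.50 over 7. *Anln*, anillin, the scaffold of the contractile ring, was at 48.4, 89.0 and 72.9 CPM in WT and at 37.6, 48.6 and 32.1 CPM in KO. KO replicate 2 lay just above WT replicate 1, so the groups overlapped, and the estimate was -0.83 ± 0.28 (edgeR adjusted p 0.341). *Prc1*, which bundles microtubules at the spindle midzone, was at 30.7, 71.5 and 59.4 CPM in WT and 38.1, 46.4 and 29.2 CPM in KO, with overlap (-0.51 ± 0.35). The kinesin genes spanned a wide range, from *Kif20a* of the midzone (-0.77 ± 0.32) to *Kif11* (-0.27 ± 0.40), which pushes the spindle poles apart, and *Kif23* (-0.13 ± 0.32). *Hmmr* (-0.50 ± 0.42), a spindle protein gene, overlapped too. *Nusap1*, a microtubule-binding gene, was the only G2/M member with an estimate above 0 (0.05 ± 0.33), and KO replicate 1 was its highest library at 31.05 CPM.

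*Mki67* and *Top2a*, the usual tissue markers of proliferation, differed less than their error. *Mki67*, which encodes Ki-67, was at 46.8, 191.1 and 163.8 CPM in WT and 80.2, 147.9 and 102.7 CPM in KO. WT held both the lowest and the highest library, and the estimate was -0.28 ± 0.52 (edgeR adjusted p 0.877). *Top2a*, the topoisomerase that untangles sister chromatids, was at 43.7, 127.6 and 113.8 CPM in WT and 81.0, 105.0 and 72.2 CPM in KO, with an estimate of -0.14 ± 0.40. Both had WT replicate 1 as their lowest library.

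**Figure D2:**
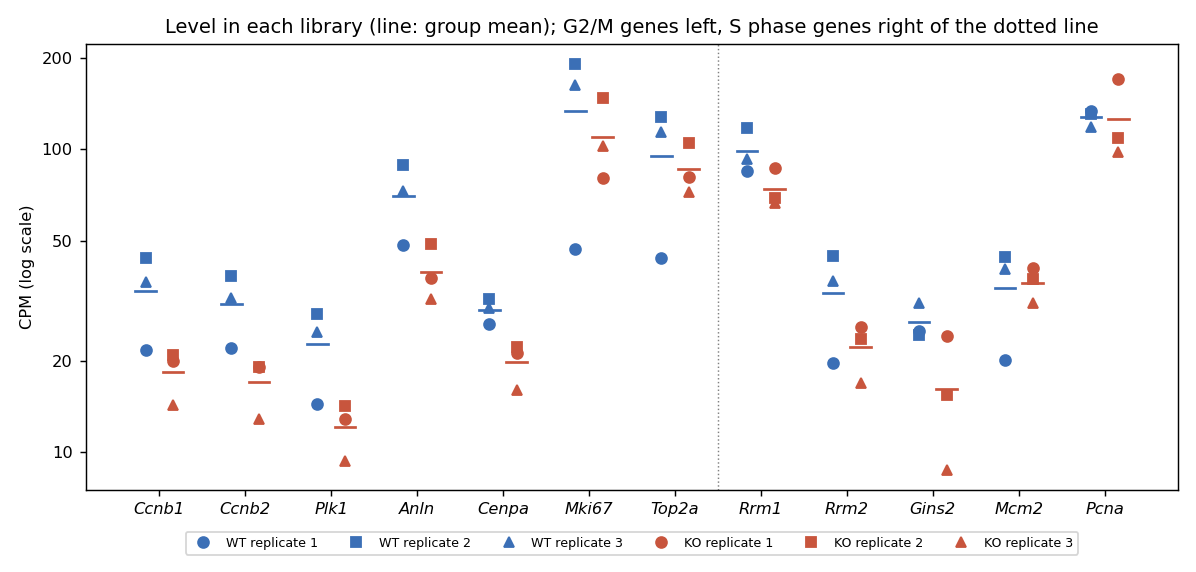
Level of 12 cell cycle genes in each library (y axis, CPM on a log scale; blue WT, red KO; marker shape gives the replicate number; lines are group means), with G2/M genes to the left of the dotted line and S phase genes to the right. *Ccnb1*, *Ccnb2*, *Plk1* and *Cenpa* show all 3 KO libraries below all WT libraries, and *Mki67* spans 46.8 to 191.1 CPM within WT alone.

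The 20 S phase genes had a smaller median estimate, -0.25, with 17 below 0. None passed edgeR, where the smallest adjusted p was 0.489 and 0 members were under an unadjusted p of 0.05. DESeq2 and limma-voom also called 0, with 0 at an unadjusted p under 0.05 in each. Of the 20, 10 had an estimate within 1 SE of 0, against 8 of the 26 G2/M genes. KO lay below WT in all libraries for 2 S phase genes (10%) and 6 G2/M genes (23.1%), beside 11.3% of all genes. The number of S phase members lower at an unadjusted p under 0.05 was 7 without WT replicate 1 (6.71% of all genes) and 3 without KO replicate 1 (6.33%), and it was 0 when any of the other 4 libraries was left out.

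The 6 MCM genes, whose products form the replicative helicase, had a median of -0.14, with 4 estimates below 0 and 2 above. *Mcm6* was at 52.8, 89.9 and 84.1 CPM in WT and 69.5, 65.6 and 52.4 CPM in KO (-0.27 ± 0.25). *Mcm3* was at 31.8, 60.7 and 56.8 CPM in WT and 56.1, 47.1 and 38.5 CPM in KO (-0.08 ± 0.29). *Mcm4* was at 32.7, 60.5 and 52.4 CPM in WT and 49.1, 51.9 and 45.9 CPM in KO (0.01 ± 0.25). In each of these the lowest or next-lowest library was WT replicate 1 and the highest was WT replicate 2. *Mcm2* followed the same order, at 20.1, 44.2 and 40.3 CPM in WT and 40.5, 37.4 and 31.02 CPM in KO (0.06 ± 0.31). *Mcm5* (-0.22 ± 0.25) and *Mcm7* (-0.21 ± 0.20) overlapped between the genotypes too.

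The licensing and firing genes were all below 0. *Gins2*, a subunit of the GINS complex that joins the helicase when an origin fires, had the lowest S phase estimate, -0.74 ± 0.37, from 25.2, 24.4 and 31.2 CPM in WT to 24.2, 15.4 and 8.76 CPM in KO. Its groups did not overlap, but KO replicate 1 was only just below WT replicate 2 (edgeR adjusted p 0.492). *Cdt1* (-0.38 ± 0.22) and *Cdc6* (-0.12 ± 0.46), which load the MCM helicase, and *Cdc45* (-0.28 ± 0.35), which travels with it, all overlapped.

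The genes of deoxynucleotide synthesis had a median of -0.41 over 3. *Rrm1*, the large subunit of ribonucleotide reductase, had the smallest p of the S phase set. It was at 84.7, 117.7 and 93.3 CPM in WT and 86.9, 69.4 and 66.5 CPM in KO, with an estimate of -0.41 ± 0.20 (edgeR unadjusted p 0.085, adjusted p 0.489). KO replicate 1 lay above WT replicate 1, so the groups overlapped. *Rrm2*, the small subunit, was at 19.6, 44.3 and 36.7 CPM in WT and 25.99, 23.7 and 16.96 CPM in KO (-0.60 ± 0.34). *Tyms*, thymidylate synthase, had -0.34 ± 0.25.

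*Pcna*, the sliding clamp of the DNA polymerases, had by far the highest level per gene length of the 46, 79.0 ± 3.5 FPKM in WT and 81.3 ± 23.6 FPKM in KO (SD, n = 3 each). The next S phase gene was *Rrm1* at 23.3 ± 4.7 and 18.2 ± 2.3 FPKM. In CPM *Pcna* was at 133.4, 130.8 and 118.7 in WT and 171.2, 109.3 and 98.2 in KO (-0.02 ± 0.25), and KO held both its highest and its lowest library. *Ung*, the uracil glycosylase gene, was low, at 3.38, 5.01 and 5.14 CPM in WT and 3.00, 3.36 and 2.93 CPM in KO. Its groups touched but did not overlap (-0.54 ± 0.30, edgeR adjusted p 0.534). *Uhrf1*, which carries DNA methylation through replication, had -0.43 ± 0.36.

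Of the 4 genes grouped here under the step from G1 to S, 3 had estimates below 0 and 1 above, and none was at an unadjusted p under 0.05 in edgeR. *Ccne1*, cyclin E1, was at 8.20, 14.9 and 12.4 CPM in WT and 8.24, 8.93 and 6.44 CPM in KO (-0.59 ± 0.30). *Ccne2*, cyclin E2, was at 9.58, 12.9 and 12.5 CPM in WT and 22.9, 11.9 and 8.79 CPM in KO, and its estimate of 0.32 ± 0.38, the highest of the 46, rested on KO replicate 1. Without both libraries numbered 1 the *Ccne2* estimate was -0.29. *E2f1*, the transcription factor of this step, had -0.04 ± 0.27, and *Chek1*, the checkpoint kinase gene, had -0.03 ± 0.38.

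**Figure D3:**
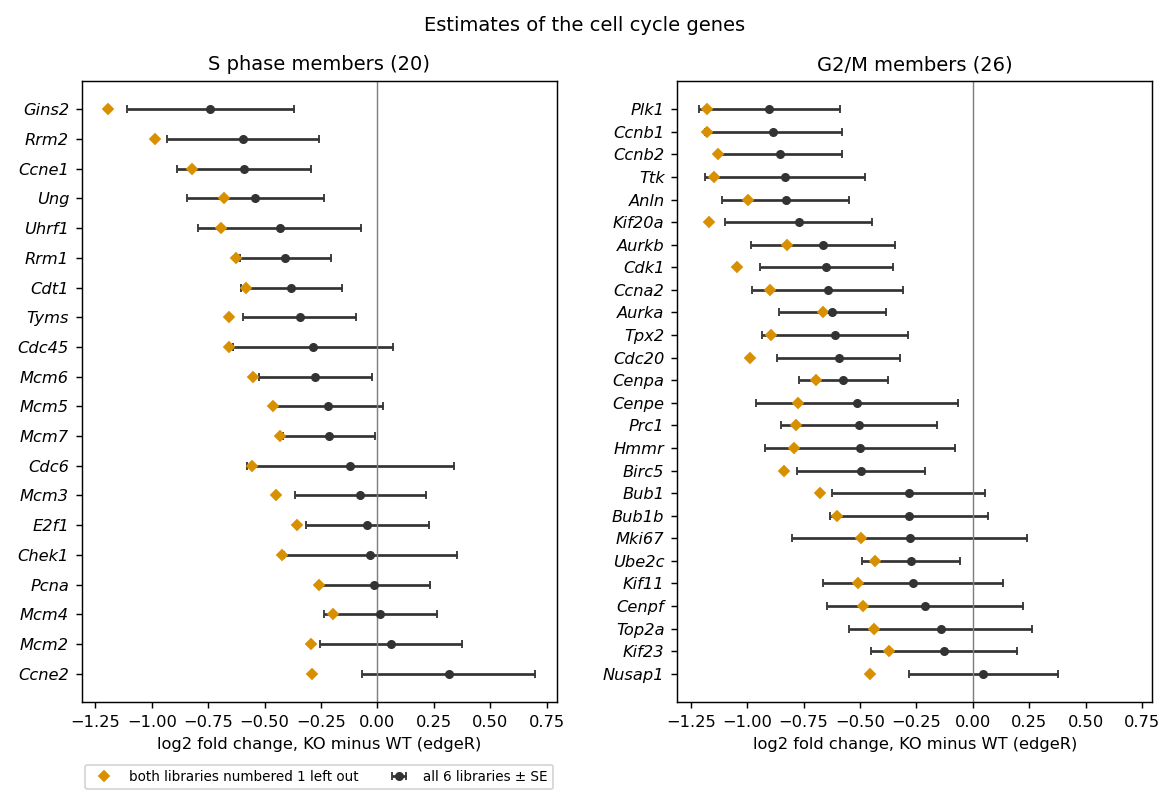
edgeR log2 fold change of each of the 46 genes (x axis, KO minus WT; black points with SE bars from all 6 libraries, orange diamonds without both libraries numbered 1), ordered within each phase. All 26 G2/M genes but *Nusap1* lie left of 0, and without the libraries numbered 1 all 46 do.

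Set side by side, the G2/M genes had the lower estimates, but the phases were not separated between genotypes in every library. The median of the S phase members was 0.30 log2 units above that of the G2/M members. The mean centred log2 CPM of the S phase genes (each gene's log2 CPM minus its mean over the 6 libraries) was -0.36, 0.38 and 0.31 in WT replicates 1 to 3 and 0.12, -0.06 and -0.40 in KO. That of the G2/M genes was -0.39, 0.65 and 0.43 in WT and -0.14, -0.01 and -0.54 in KO. On both scales WT replicates 2 and 3 were highest, and WT replicate 1 was beside KO replicate 3 at the bottom.

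The difference of the phase means (S phase minus G2/M) within each library was 0.04, -0.27 and -0.12 in WT and 0.27, -0.05 and 0.14 in KO. Group means were -0.12 ± 0.15 in WT and 0.12 ± 0.16 in KO (SD, n = 3 each), and the groups overlapped. KO lay above the WT library of the same number in each case, although the numbers are not stated to pair mice. The library numbered 1 had the highest difference in each genotype. As a ratio of summed CPM, S phase over G2/M was 0.98, 0.65 and 0.70 in WT and 1.05, 0.73 and 0.89 in KO, again with overlap. No test of this difference was made, since the members were chosen with results known.

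**Figure D4:**
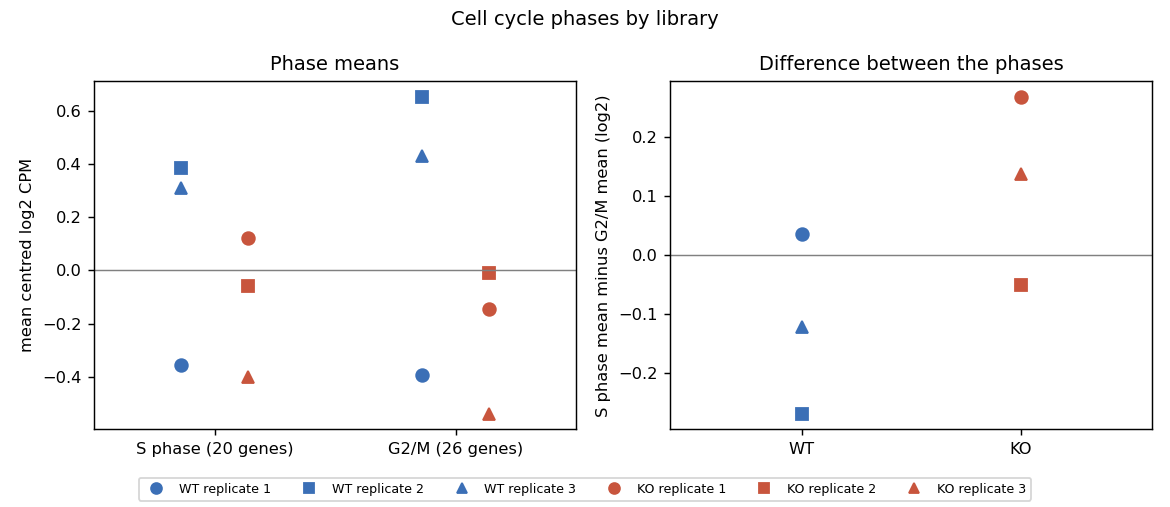
Left, mean centred log2 CPM of the 20 S phase and 26 G2/M genes in each library; right, the S phase mean minus the G2/M mean (blue WT, red KO; marker shape gives the replicate number). WT replicate 1 lies at -0.36 and -0.39, away from the other WT libraries, and the differences on the right run from -0.27 to 0.04 in WT and from -0.05 to 0.27 in KO.

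Single libraries decided much of the spread. WT replicate 1 was below both other WT libraries in 26 of 26 G2/M genes and 18 of 20 S phase genes, beside 45.6% of all genes. WT replicate 2 was the highest library for 25 G2/M and 14 S phase genes, beside 11.6% of all genes. Without WT replicate 1 the medians were -0.75 for G2/M and -0.44 for S phase. Leaving out KO replicate 1 (-0.57 and -0.33) or KO replicate 2 (-0.67 and -0.28) also lowered them. They were smaller in size without WT replicate 2 (-0.39 and -0.11), WT replicate 3 (-0.48 and -0.14) or KO replicate 3 (-0.40 and -0.12). With both libraries numbered 1 left out they were -0.79 and -0.55, and all 46 estimates were below 0 (49.4% of all genes were). In that comparison of 2 libraries with 2, edgeR had 20 G2/M genes (76.9%) and 13 S phase genes (65%) lower at an unadjusted p under 0.05, beside 14.7% of all genes. At the adjusted threshold it called 0 of the 46 (smallest adjusted p 0.062, *Cdc20*) and 46 genes in all (0.275%). All 46 cell cycle genes had both remaining KO libraries below both remaining WT libraries, beside 33.2% of all genes.

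Most other genes of the same machinery also had estimates below 0. Of 58 further replication genes 45 were below 0 (median -0.31), 0 passed the adjusted threshold of edgeR and 7 were lower and 0 higher at an unadjusted p under 0.05 (5.89% and 5.95% of all genes). *Dbf4*, the activator of the CDC7 kinase that fires origins, was at 25.4, 32.9 and 30.2 CPM in WT and 12.5, 17.8 and 16.5 CPM in KO (-0.92 ± 0.21). It had an adjusted p of 0.234 in edgeR and 0.021 in DESeq2, which made it the 1 gene of that list that DESeq2 called (lower for 1.73% of all genes). *Dut* (-0.75 ± 0.22), which keeps uracil out of DNA, and *Rfc5* (-0.68 ± 0.21), a subunit of the clamp loader, also had no overlap. *Rpa1* (-0.19 ± 0.16), which binds single-stranded DNA, and *Usp1* (-0.32 ± 0.21) were closer to 0. The groups did not overlap for *Rpa1* and did for *Usp1*.

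Of 65 further mitotic genes 61 were below 0 (median -0.50), with 0 past the adjusted threshold of edgeR. At an unadjusted p under 0.05 edgeR had 10 lower and 0 higher (5.89% and 5.95% of all genes). *Mastl*, the Greatwall kinase that protects the phosphorylation of CDK1 targets during mitosis, was at 10.4, 22.5 and 18.3 CPM in WT and 7.74, 7.71 and 6.04 CPM in KO (-1.25 ± 0.33). Its adjusted p was 0.268 in edgeR and 0.029 in DESeq2. *Cdca3*, which triggers mitotic entry, was at 20.9, 29.4 and 24.3 CPM in WT and 15, 14.5 and 11.3 CPM in KO (-0.87 ± 0.22; adjusted p 0.248 in edgeR and 0.045 in DESeq2). These were the 2 genes of the list that DESeq2 called (lower for 1.73% of all genes). *Tacc3* (-0.69 ± 0.20), a spindle gene, had no overlap, while the condensin gene *Smc4* (0.19 ± 0.30) and the CENP-A chaperone gene *Hjurp* (-0.06 ± 0.28) differed by less than their error.

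In the list of E2F, B-MYB and FOXM1 regulators 11 of 16 were below 0 (median -0.26), with 0 past edgeR's adjusted threshold. In edgeR 2 were lower at an unadjusted p under 0.05 (5.89% of all genes). These were *Tfdp1*, the dimer partner of the E2F proteins, at 76.4, 99.7 and 89.9 CPM in WT and 60.6, 69.9 and 56.1 CPM in KO (-0.51 ± 0.18), and *Mybl2*, which encodes B-MYB (-1.05 ± 0.43). *Mybl2* was at 6.82, 14.5 and 15.1 CPM in WT and 3.47, 7.47 and 6.60 CPM in KO. *Lin54* (-0.48 ± 0.22), the MuvB subunit that binds the CHR, overlapped between the groups. *Rbbp4* (-0.04 ± 0.21), another MuvB subunit, and *Tfdp2* (-0.21 ± 0.39), a dimer partner like *Tfdp1*, differed by less than their error.

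The cyclins and kinases of G1 had a median of -0.05, with 9 of 14 below 0 and 0 at an unadjusted p under 0.05 in edgeR (1 in DESeq2, beside 11.4% of all genes, and 1 in limma-voom, beside 12.6%). *Ccnd3*, a D-type cyclin of blood cells among others, lay above all WT libraries in KO, at 130.3, 121.2 and 118.3 CPM in WT and 159.9, 162.7 and 152.2 CPM in KO (0.36 ± 0.15, edgeR adjusted p 0.433). *Ccnd2* (0.40 ± 0.21) was likewise without overlap, and *Ccnd1*, cyclin D1, had 0.03 ± 0.26. *Myc* had -0.82 ± 0.53, with KO replicate 1 at 8.59 CPM. CDK inhibitors and pocket proteins had a median of -0.06, with 7 of 11 below 0 and 0 at an unadjusted p under 0.05 in edgeR, DESeq2 and limma-voom. *Cdkn1a*, which encodes the p53-induced inhibitor p21, was at 434.6, 334.6 and 301.1 CPM in WT and 232.7, 341.0 and 472.7 CPM in KO (-0.03 ± 0.31). *Cdkn1c* (-0.62 ± 0.32), *Cdkn2d* (-0.20 ± 0.24) and *Rb1* (-0.06 ± 0.32) overlapped, and *Cdkn3* (-0.77 ± 0.41), whose product dephosphorylates CDKs, did not. In the anaphase-promoting complex list 12 of 17 were below 0 (median -0.14). At an unadjusted p under 0.05 it had 0 in edgeR, 1 in DESeq2 (11.4% of all genes) and 2 in limma-voom (12.6%). *Anapc5* (-0.44 ± 0.18), *Anapc7* (-0.37 ± 0.16) and *Anapc15* (-0.58 ± 0.25) had no overlap, and *Anapc1* had -0.01 ± 0.29.

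**Figure D5:**
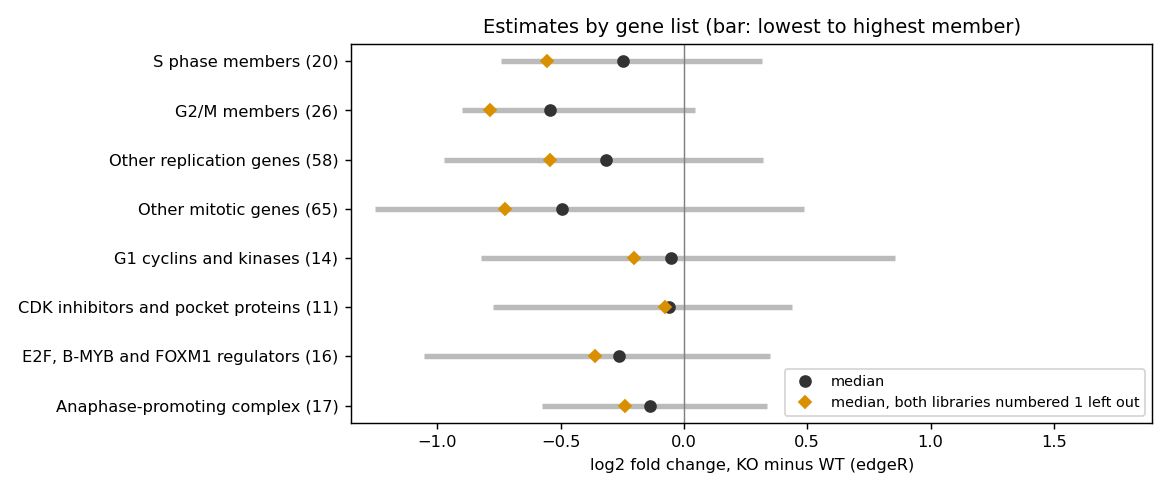
Median edgeR log2 fold change (x axis, KO minus WT) of both phases and of the 6 other cell cycle lists, with the number of genes in parentheses; grey bars run from the lowest to the highest gene, black points are medians over all 6 libraries and orange diamonds medians without both libraries numbered 1. The G2/M and other mitotic genes have the lowest medians (-0.54 and -0.50), and the G1 cyclins and CDK inhibitors lie near 0 (-0.05 and -0.06).

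Markers of cell types that can divide in lung also differed between libraries, and their part in these results was not tested. Counts at an unadjusted edgeR p under 0.05 given here stand beside 5.89% of all genes lower and 5.95% higher, and DESeq2 calls beside 1.73% lower and 1.91% higher. In the monocyte and interstitial macrophage list 11 of 14 had lower estimates in KO (3 at p under 0.05, 1 called by DESeq2), with summed levels of 7319 to 9800 CPM in WT and 2271 to 5672 CPM in KO. The largest share of that sum was *Spp1*, osteopontin, at 4514, 7057 and 6209 CPM in WT and 3579, 2166 and 1108 CPM in KO, and *Arg1*, arginase 1, was at 818.1, 681.4 and 443.1 CPM in WT and 66.6, 22.95 and 15.5 CPM in KO; both were chosen after their values were seen. With each gene given equal weight the list overlapped between the genotypes (mean centred log2 CPM 0.05 in WT replicate 1 and 0.07 in KO replicate 1), and the monocyte receptor genes *Ccr2* (0.51 ± 0.36) and *Cx3cr1* (1.01 ± 0.69) had estimates above 0. Of the alveolar macrophage markers 7 of 10 were higher (3 at p under 0.05, 3 called by DESeq2), with overlapping sums of 1350 to 2081 CPM in WT and 586.2 to 2341 CPM in KO. KO replicate 1 was the highest library for 8 of these 10 genes, and KO replicates 2 and 3 summed to 754.6 and 586.2 CPM. The median log2 fold change of that list was 0.92, and 0.18 with both libraries numbered 1 left out. Neutrophil markers (7 of 7 lower, 3 at p under 0.05, 1 called by DESeq2) summed to 194.2 to 260.7 CPM in WT and 124.3 to 183 CPM in KO. Smooth muscle and myofibroblast markers (5 of 7 lower, 4 at p under 0.05, 1 called by DESeq2) summed to 1317 to 1836 CPM in WT and 413.2 to 1184 CPM in KO, and these sums did not overlap. With each gene given equal weight that list did overlap (mean centred log2 CPM 0.10 in WT replicate 1 and 0.38 in KO replicate 2). The T cell list had 11 of 11 measured genes higher (summed 16.2 to 36.1 CPM in WT and 61.7 to 91.4 CPM in KO), the B cell list 10 of 10 (29.5 to 76.5 and 95.6 to 136.3 CPM) and the natural killer cell list 8 of 8 (5.65 to 12.7 and 27.7 to 48.5 CPM). At p under 0.05 these were 11, 7 and 7 genes, and DESeq2 called 9, 5 and 4. In the germinal centre B cell list 4 of 6 tested genes were higher (1 at p under 0.05, 1 called by DESeq2). Of the 2 lower genes, 1 was at p under 0.05. In the plasma cell list 5 of 7 tested genes were lower, with 0 at p under 0.05. Of the fibroblast markers 9 of 12 were lower, but 0 were lower and 2 higher at p under 0.05. DESeq2 called 1 of them, which was higher. Their sums (5175 to 20748 CPM in WT and 2710 to 14185 CPM in KO) overlapped. Endothelial markers (7 of 9 higher, 0 at p under 0.05, 1125 to 3601 and 1752 to 3703 CPM) overlapped too. WT replicate 1 was lowest of WT in both lists. The same library was highest for secretory airway markers at 11861 CPM, against 308.3 to 939.5 CPM in the other WT libraries and 1812 to 4540 CPM in KO (5 of 8 lower). Type 2 alveolar markers were higher for 10 of 10 genes (2 at p under 0.05, 2 called by DESeq2). Their sums (2023 to 10696 CPM in WT and 3663 to 20383 CPM in KO) overlapped. None of the markers in these lists was at 0 in all libraries.

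Markers of tissues that divide fast and could be carried along at dissection were also read, and their part in these results was not tested. Thymocyte markers summed to 9.21 to 16.3 CPM in WT and 13.5 to 17.9 CPM in KO. All 3 tested were higher in KO, 1 of them at an unadjusted edgeR p under 0.05 (5.95% of all genes were). *Ptcra* was at 0 counts in all 6 libraries, and *Rag1* and *Rag2* were too low to be tested. Granulocyte precursor markers (3 of 4 tested genes higher) summed to 4.48 to 16.3 CPM in WT and 12.1 to 21.6 CPM in KO. The only gene of that list at an unadjusted edgeR p under 0.05 was lower in KO (5.89% of all genes were). Erythroid precursor markers (6 of 6 tested genes higher) summed to 15.5 to 83.8 CPM in WT and 27.8 to 80.2 CPM in KO. Replicate 1 had the highest sum in both genotypes.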

How the data were processed

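Gene counts from whole lung of 6 mice (3 WT, 3 KO, all with bleomycin) are the authors' deposited values, whole and unnormalized, 1 column per library. FPKM values were deposited by the authors for the same rows. They are used to compare levels between genes and in the alternative limma fits of KO against WT. In that FPKM table the KO column names end in characters the labels leave unexplained, so they count as KO libraries of unknown replicate number. Per the submitters' processing notes, which state no roles, HISAT2 2.0.4, StringTie 1.3.4d and GRCm38 were used. The sources used here do not give the strand setting, the annotation or the treatment of shared reads, so overlapping genes and near-identical copies are uncertain.

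Counts were tested with edgeR 4.0.16 (R 4.3.3): filterByExpr, TMM scaling, quasi-likelihood with robust dispersion and no covariate beside genotype, 2-sided, Benjamini-Hochberg over all 16633 rows tested, threshold 0.05. SE was obtained by dividing the size of each log2 fold change by the square root of its F statistic. CPM uses the TMM factors, and centred log2 CPM a prior count of 2. Alternatives were DESeq2 1.42.0, limma-voom (limma 3.58.1), other scalings and filters, limma on log2(FPKM + 1) and log2(FPKM + 0.1), a replicate block, each library left out, and both libraries numbered 1 left out. The fits were tested on simulated data.

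Members, lists and tests were chosen with earlier results of these data known. The rule for named genes took the 5 members per phase of highest mean FPKM, the 5 of smallest p, *Mki67*, *Top2a*, *Pcna* and *Mcm2*, and in each other cell cycle list the 3 of smallest p and 2 of highest mean CPM. The other members are given by their estimates to account for all 46. Counts of 31052936 to 34451956 per library leave counting error small for most members. Promoter windows came from RefSeq (GRCm38.p6). The bases after the start site were found in GENCODE M21 transcripts of the same gene for 37 of 42 windows and reversed in 0.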

Additional observations from a re-analysis of the deposited data

How the results depend on the processing

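Over all genes edgeR called 0, and this count was 678 with DESeq2, 46 with both libraries numbered 1 left out, and 0 to 3 when 1 library was left out (1 without KO replicate 1 and 3 without KO replicate 2). *Clec7a* passed the threshold with DESeq2 (-4.67, adjusted p 1.52e-14), and its estimate was -5.14 to -4.03 when 1 library was left out. With 1 library left out the S phase median was -0.44 to -0.11, the G2/M median -0.75 to -0.39 and their difference 0.24 to 0.39, with 12 to 19 S phase and 20 to 26 G2/M genes below 0. The number of members past the adjusted threshold was 0 under every alternative run. On log2(FPKM + 1) the S phase and G2/M medians were -0.14 and -0.46, and on log2(FPKM + 0.1) -0.15 and -0.49, with 13 and 12 S phase genes below 0. Of the 46 members, 14 turned sign under at least 1 of the 17 alternatives. *Mcm2* was -0.29 and *Mcm4* -0.20 with both libraries numbered 1 left out. *Pcna* was 0.027 with total counts, 0.0048 on log2(FPKM + 1) with or without the filter and 0.0045 on log2(FPKM + 0.1). *Mcm3* was 0.020 and *Top2a* 0.032 on log2(FPKM + 1), with or without the filter, and they were 0.025 and 0.044 on log2(FPKM + 0.1). With 1 library left out the ranges were -0.22 to 0.27 for *Mcm2*, -0.32 to 0.10 for *Mcm3*, -0.21 to 0.21 for *Mcm4*, -0.69 to 0.076 for *Mki67*, -0.30 to 0.14 for *Pcna* and -0.49 to 0.14 for *Top2a*. Over all alternatives the ranges were -0.29 to 0.58 for *Ccne2*, -0.56 to 0.18 for *Cdc6*, -0.42 to 0.24 for *Chek1*, -0.36 to 0.087 for *E2f1*, -0.57 to 0.11 for *Cenpf*, -0.61 to 0.0061 for *Kif11*, -0.42 to 0.13 for *Kif23* and -0.46 to 0.27 for *Nusap1*. The cause was not tested. Same-numbered libraries deviated from their group means with correlations of 0.35, 0.35 and -0.10. For differently numbered libraries these ran from -0.51 (WT replicate 1 with KO replicate 2) to 0.47 (WT replicate 3 with KO replicate 2). The numbers are not stated to pair mice and were not taken as pairs. With the replicate block the S phase and G2/M medians were -0.22 and -0.54, and 0 genes were called.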
